A study of Saccharomyces cerevisiae with 12 samples.

Results

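The mating genes of *MAT***a** cells were described over RNA-seq libraries of budding yeast (*Saccharomyces cerevisiae*). The set held 10 genes of 7126 features in the deposited table, and all 10 passed the filter for testing (6497 features whose mean was 1 FPKM or more). FPKM is the number of fragments scaled to transcript length and to library size, so it is a level per length. The genes were chosen by name as rows of the table, and they were selected with the levels in these same 12 libraries already known. Their levels are therefore given as a description, and counts of members past a threshold are not independent evidence for the set.

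Haploid yeast cells mate through a pair of secreted pheromones. **a** cells make the lipid-modified a-factor, encoded by *MFA1* and *MFA2*, export it with the transporter Ste6, and read the α-factor of the partner through the receptor Ste2. Receptor activation frees a G protein whose α subunit is Gpa1, a kinase cascade follows, and the transcription factor Ste12 then turns on genes such as *FUS1*, which acts in cell fusion. Bar1 is a secreted protease that degrades α-factor. Aga1 and Aga2 form the surface agglutinin by which **a** cells stick to their partners.

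The wild-type (WT) strain was BY4730 and the *RRD1* knockout (KO) was the strain YSC6273-201925697, a single ready-made deletion strain. Rrd1 is an activator of the PP2A family of phosphatases, which act downstream of TORC1, the kinase complex that rapamycin inhibits. Both strains were grown in the rich medium YPD to log phase at 30 °C, and each was sampled untreated and after 50 min with 100 nM rapamycin, which gave 4 groups of 3 libraries. Untreated libraries carry the numbers 1, 3 and 5 and rapamycin libraries the numbers 2, 4 and 6 in each strain. The repeats were made on different days, but nothing ties a library to a day, so the p-values measure the spread between these libraries whatever its source. No other agent and no vehicle control is named in the sources used here. As described, untreated cells were taken at log phase and treated cells after 50 min more of culture. Rapamycin, added culture time and any solvent can therefore not be told apart. The strains' remaining genotypes are taken only as far as the labels give them.

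*RRD1* itself was at 47.7, 47.5 and 72.3 FPKM in the untreated WT libraries and at 81.9, 67.2 and 85.3 FPKM in the rapamycin WT libraries. In the KO it was listed at 0 in 4 of 6 libraries and at 0.103 and 0.203 FPKM in the other two, so every library went with its strain label. The mating type is not in the labels. All 7 defining **a**-cell genes (*MFA1*, *MFA2*, *STE2*, *STE6*, *BAR1*, *AGA2* and *ASG7*) were expressed in all 12 libraries. Of the α-cell genes, *MATALPHA1* and *MATALPHA2* were listed at 0 in every library, the α-factor gene *MF(ALPHA)1* lay between 0 and 1.87 FPKM and the a-factor receptor gene *STE3* between 2.71 and 11.2 FPKM. The second α-factor gene *MF(ALPHA)2* (28.9 to 59.8 FPKM) and the α-agglutinin gene *SAG1* (13.5 to 80.3 FPKM) were above those levels in both strains. Of the silent-cassette genes, *HMLALPHA1* was listed at 0 and *HMRA1* was at 167 to 425 FPKM. *HMRA1* has a copy of the same sequence at the mating-type locus, so its reads cannot be assigned to one of them. *HMLALPHA2* (53.2 to 155 FPKM) and *HMRA2* (74.4 to 244 FPKM) share sequence with each other and with that locus and are uncertain in the same way. *RME1* and *HO*, which haploid cells express, were at 58.1 to 430.4 and 37.9 to 93.0 FPKM, and the meiosis inducer gene *IME1* at 6.24 to 14.1 FPKM. The auxotrophic marker genes *LEU2*, *URA3* and *MET17* were listed at 0 in all 12 libraries, and *LYS2* was at 33.5 to 180 FPKM. The marker gene *HIS3* was at 119.8, 82.7 and 115 FPKM in untreated WT and at 72.6, 82.8 and 75.8 FPKM in untreated KO. With rapamycin *HIS3* was at 737, 611 and 658 FPKM in WT and lower, at 274, 405 and 430 FPKM, in the KO. The source of that difference was not tested. Log2(FPKM + 1) values of replicate libraries correlated across features at 0.942 to 0.967. The steps between low FPKM values gave an implied depth of 8442000 to 11761000 reads a library, at which 63.9% to 78.9% of 19 to 36 low genes lay within 0.05 of a whole read. That was too few for counts to be recovered, so the depth is an estimate.

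Both a-factor genes are shown first, because their short length sets what their FPKM can mean. *MFA1* (YDR461W, chromosome IV, 1385176 to 1385286, plus strand, R64 assembly) and *MFA2* (YNL145W, chromosome XIV, 352414 to 352530, plus strand) are coding sequences of 111 and 117 bases. Their reference sequences are printed with the codons of the longest shared run of residues in capitals.
MFA1: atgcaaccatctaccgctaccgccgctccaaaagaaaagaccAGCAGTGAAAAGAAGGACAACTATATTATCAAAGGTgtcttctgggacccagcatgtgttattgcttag
MFA2: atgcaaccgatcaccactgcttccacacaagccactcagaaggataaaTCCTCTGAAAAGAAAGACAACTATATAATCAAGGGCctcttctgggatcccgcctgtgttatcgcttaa
The capitals encode 12 residues that are the same in both precursors, and 8 of the 36 bases differ there. Over the whole alignment 87 of 120 columns were identical (72.5%), and the longest identical stretch was 11 bases. A read of 100 bases therefore spans several differences between them. How reads that fit more than one place were treated is not given in the sources used here. No annotated R64 gene overlapped any of the 10 members.

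The upstream sequences of the members hold short matches to known mating elements. In **a**-cell genes the α2-Mcm1 operator, through which α cells keep these genes off, has a half-site CATGT, then 5 or 6 bases, CC, 6 bases and GG, and this pattern was searched on both strands. It was found within 250 bases before and 50 bases after the start codon of 4 of the 10 members (*MFA1*, *MFA2*, *STE2* and *STE6*), and in 0.199% of 6020 such windows over the genome (12 windows). The matched stretches are printed 5′ to 3′ on the strand of the match, with the letters of the pattern in capitals.
MFA1, chrIV:1384941-1384972, minus strand: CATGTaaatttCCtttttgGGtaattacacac
MFA2, chrXIV:352162-352193, minus strand: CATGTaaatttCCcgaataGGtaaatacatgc
STE2, chrVI:82351-82382, plus strand: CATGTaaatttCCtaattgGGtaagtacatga
STE6, chrXI:46476-46507, minus strand: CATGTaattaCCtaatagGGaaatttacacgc
The match before *STE2* was also present on the opposite strand, 1 base away. The Ste12 element TGAAACA, searched on both strands, was in the windows of 7 of the 10 members, all but *MFA1*, *STE12* and *GPA1*, against 7.48% of the 6020 windows (450 windows). *FUS1* held 2 copies, which only 0.415% of the windows did (25 windows).
FUS1, chrIII:71610-71655, plus strand: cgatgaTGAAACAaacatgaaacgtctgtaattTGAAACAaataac
A match is a description of the sequence, and no match says only that these letters are not in this window. Neither pattern contains the other, and the files' own genome build is not given in the sources used here, so genes were joined to R64 by their systematic names.

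All members but *STE12* had their highest group mean in rapamycin-treated WT cells. In WT, *MFA2*, *STE2* and *AGA2* rose with rapamycin by 2.06-fold, 2.23-fold and 3.41-fold, and 9 of the 10 genes had all 3 treated libraries above all 3 untreated ones, as 46.3% of all tested features did. Of all tested features 35.9% rose in WT. In the KO no member passed the threshold with rapamycin, where 46.7% of all features did. With consecutive libraries as a block 4 members did, all higher, where 2823 of 6497 features were higher and 885 lower. That fit was added after seeing the data. Between the strains no member passed the threshold in either condition, although the KO mean was the lower one for all 10 genes with rapamycin. In both KO groups 1 library stood well above the other two for nearly every member.

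**Figure D1:**
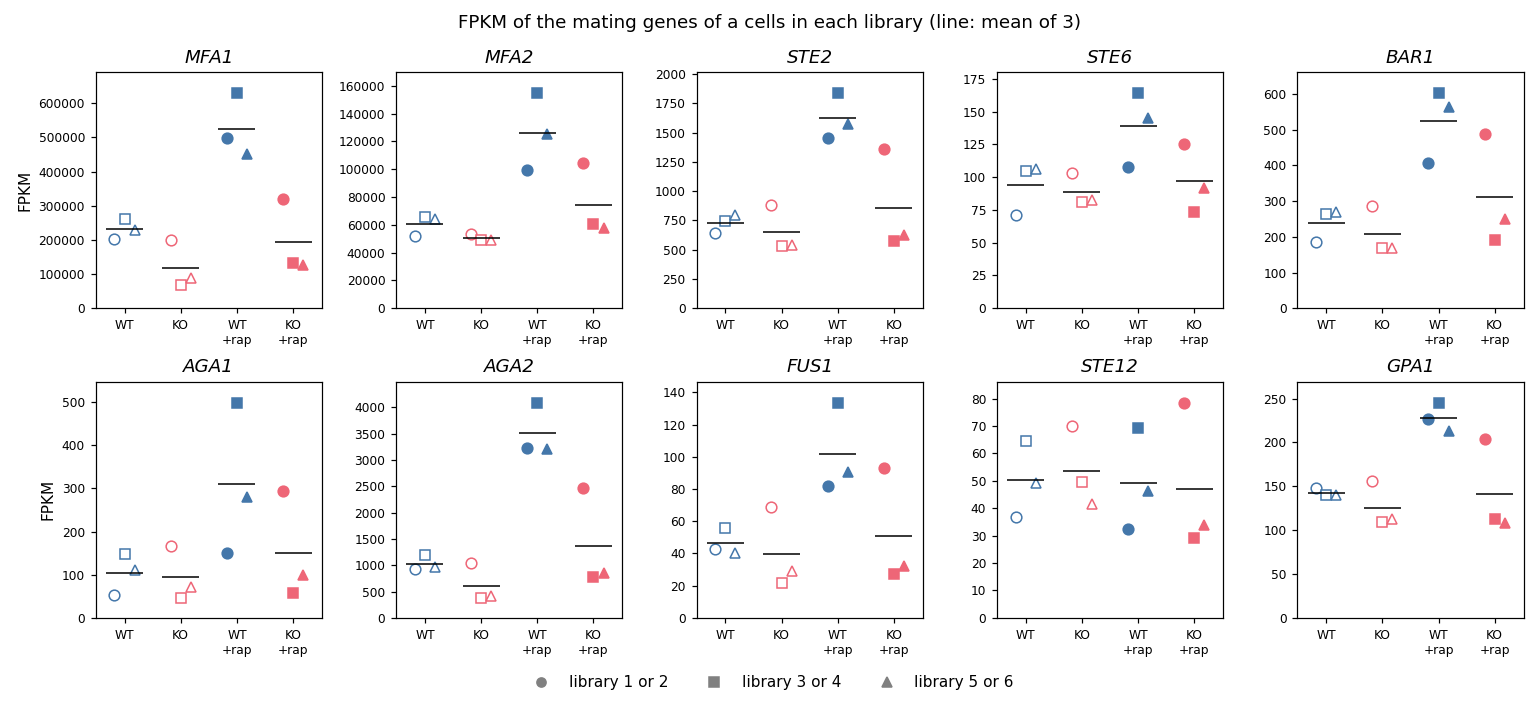
FPKM (y axis, linear, from 0) of each of the 10 mating genes in the 12 libraries, by group (x axis: untreated WT and KO, then WT and KO with rapamycin). Each point is 1 library, open without and filled with rapamycin, with the shape giving its number, and the line is the mean of 3. The circles of the KO (libraries 1 and 2) lie above the squares and triangles of their group in every panel.

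*MFA1* was the most abundant feature by FPKM in 11 of the 12 libraries and ranked second in KO library 3. It was at 202270.0, 261288 and 229939 FPKM in untreated WT and at 198870.0, 67169.9 and 88463 FPKM in untreated KO. With rapamycin it was at 497429, 629233 and 451682 FPKM in WT and at 320728, 131465 and 125098 FPKM in the KO. The WT groups did not overlap with each other, and within each condition every KO library was below every WT library. The treated and untreated KO groups overlapped, because untreated KO library 1 was above treated KO libraries 4 and 6. The group means ran from 526115 ± 92186 FPKM (SD, n = 3) in treated WT, through 231166 ± 29528 in untreated WT and 192430.3 ± 111155 in treated KO, to 118168 ± 70696 in untreated KO. The middle pair of that order differed by less than the SD of the treated KO.

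*MFA2* encodes a-factor from another precursor gene. It was at 52183, 65688 and 64367 FPKM in untreated WT and at 53264, 49038 and 49277 FPKM in untreated KO. With rapamycin its FPKM was 99259, 154658 and 125092 in WT and 104285, 60635 and 57599 in the KO. The treated WT libraries all lay above the untreated ones, and in the KO the treated libraries lay above the untreated ones as well. The strains overlapped in both conditions, since treated KO library 2 was above treated WT library 2.

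*STE6* (YKL209C) encodes the transporter that exports a-factor. It was at 71.1, 105 and 106 FPKM in untreated WT and at 103, 80.9 and 82.2 FPKM in untreated KO. With rapamycin it was at 107, 164 and 145 FPKM in WT and at 125, 73.4 and 91.3 FPKM in the KO. The treated WT group lay just above the untreated one (106 against 107 FPKM at the border), treated WT also lay above untreated KO, and all other pairs of groups overlapped.

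*STE2* (YFL026W), the α-factor receptor gene, was at 640.3, 741 and 793 FPKM in untreated WT and at 882, 531 and 537 FPKM in untreated KO. With rapamycin it reached 1454, 1836 and 1576 FPKM in WT and 1363, 572 and 624 FPKM in the KO. Every treated WT library was above every other library of the series. The group means were 1622 ± 195 FPKM (SD, n = 3) in treated WT, 853 ± 442 in treated KO, 725 ± 77.5 in untreated WT and 649.8 ± 201 in untreated KO, and the last 3 lay within their spread of each other. Treated KO libraries 4 and 6 (572 and 624 FPKM) were below all of the untreated WT libraries, while treated KO library 2 lay above every untreated library.

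*BAR1* (YIL015W), the gene of the α-factor protease, followed the same order. It was at 186, 264 and 269 FPKM in untreated WT, at 288, 168 and 169 FPKM in untreated KO, at 406, 602 and 564 FPKM in treated WT and at 488, 192 and 251 FPKM in treated KO. The WT groups were apart, and the strains overlapped in both conditions.

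The agglutinin genes had the largest fold changes among the members in the rapamycin response of WT, although *AGA1* did not pass the threshold. *AGA2* (YGL032C), the subunit that binds the partner, was at 922, 1199 and 964 FPKM in untreated WT and at 1033, 370.1 and 423 FPKM in untreated KO. It was at 3236, 4083 and 3206 FPKM in treated WT and at 2464, 782 and 859 FPKM in treated KO. All treated WT libraries were above all treated KO libraries, and the untreated strains overlapped only through KO library 1. The group means were 3508 ± 498 FPKM (SD, n = 3) in treated WT, 1368 ± 949.7 in treated KO, 1028 ± 149 in untreated WT and 609 ± 369 in untreated KO. *AGA1* (YNR044W), the anchor that holds Aga2 at the wall, was at 51.9, 149 and 112 FPKM in untreated WT, at 167, 46.9 and 70.5 FPKM in untreated KO, at 149.9, 498 and 280.3 FPKM in treated WT and at 294, 58.3 and 100.3 FPKM in treated KO. It was the most variable member, with a coefficient of variation between 47.0% and 83.3% in the 4 groups. Its WT groups were apart only narrowly (149 against 149.9 FPKM at the border).

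*GPA1* (YHR005C), the G protein α subunit gene, was the least variable member in WT, with 148, 139.6 and 139.7 FPKM untreated and 227, 245 and 213 FPKM with rapamycin. In the KO it was at 156, 109 and 112 FPKM untreated and at 204, 113 and 108 FPKM with rapamycin. The treated strains did not overlap. *STE12* (YHR084W), the transcription factor gene, had overlapping ranges in all groups, with 36.8, 64.4 and 49.3 FPKM in untreated WT, 69.9, 49.5 and 41.7 FPKM in untreated KO, 32.4, 69.1 and 46.4 FPKM in treated WT and 78.4, 29.2 and 33.8 FPKM in treated KO. *STE12* was the one member whose groups overlapped in every comparison. *FUS1* (YCL027W), a target of Ste12, was at 43.0, 55.5 and 40.3 FPKM in untreated WT, at 69.0, 21.3 and 28.9 FPKM in untreated KO, at 81.8, 133 and 90.8 FPKM in treated WT and at 93.1, 27.4 and 32.2 FPKM in treated KO. Its lowest 4 values were the KO libraries 3 to 6.

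The members deviated together from library to library. KO library 1, KO library 2 and WT library 4 were each the highest of their group for 10 of 10 members, whereas they were the highest for 47.3%, 42.3% and 40.2% of all tested features. WT library 1 was the lowest of its group for 8 of 10 members and for 46.6% of all tested features. Relative to the mean of its group in log2(FPKM + 1), KO library 2 was above by 0.83 at the median of the members (0.40 for *STE6* to 1.28 for *AGA1*) and KO library 1 by 0.50 (0.08 for *MFA2* to 1.01 for *AGA1*). The list medians were smaller for the other genes of the pathway, but single genes deviated as much, such as *PRM6* with 1.6 in KO library 2 and 1.24 in KO library 1 and *KAR4* with 1.21 in KO library 2 (both named after their values were seen). The 19 genes of pheromone signalling had median deviations of 0.19 in KO library 2 and 0.15 in KO library 1, the 16 other mating targets 0.36 and 0.27, and the 7 genes of a-factor maturation 0.02 and -0.05. KO library 1 was the highest of its group for 17, 11 and 2 genes of these lists and KO library 2 for 15, 12 and 3. Across the 45 pairs of members the Pearson correlation of deviations from the group means was 0.60 to 0.99 with a median of 0.88, and over the plain values of the 12 libraries it was 0.29 to 0.98 with a median of 0.91. These values are a description, and all members share the libraries and their depth. In bulk RNA a change in the share of cells that express a gene and a change in RNA per cell cannot be told apart. What set these libraries apart was not tested.

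**Figure D2:**
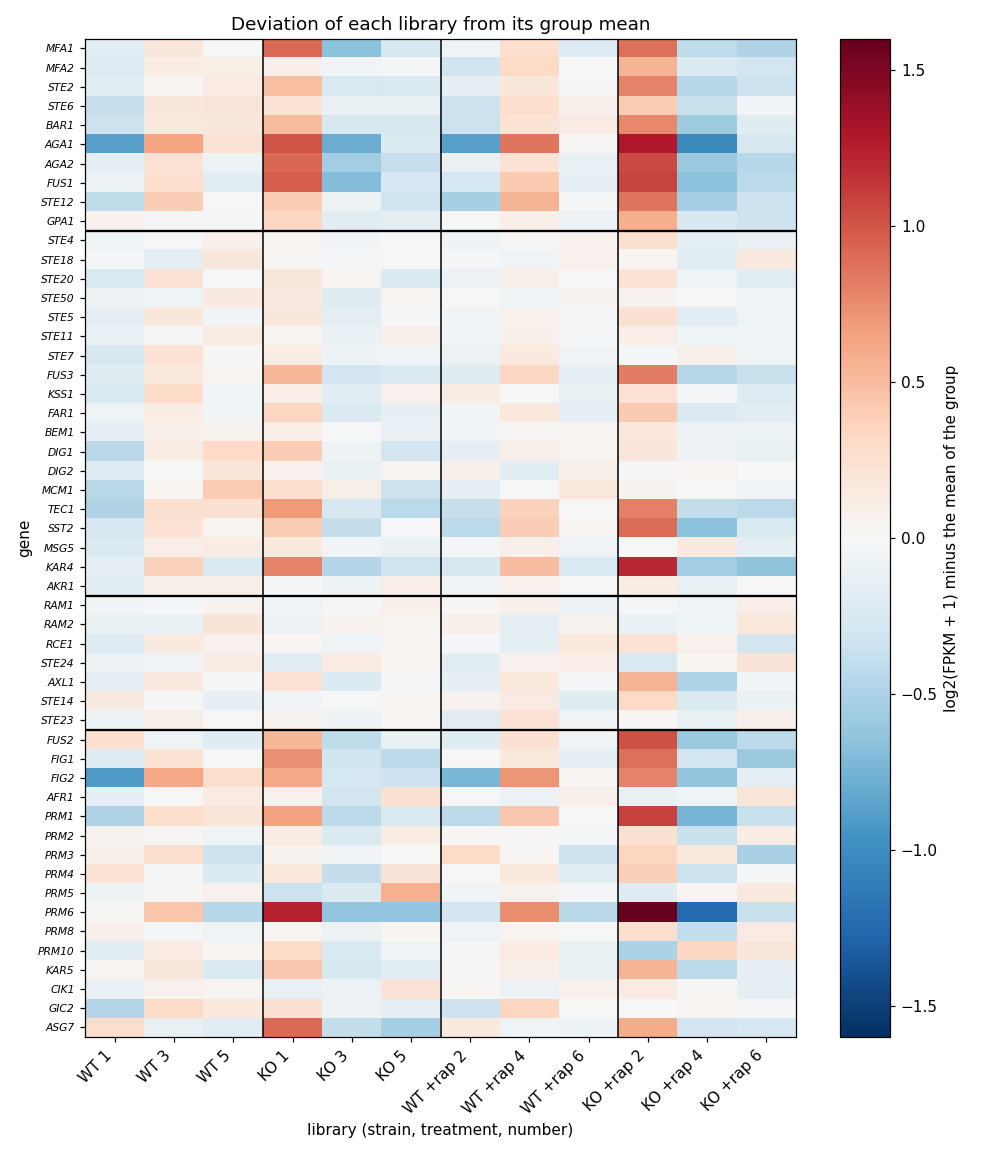
Deviation of each library from the mean of its group in log2(FPKM + 1), as color from blue (below) to red (above), for the 10 members (top block) and every gene of the lists for pheromone signalling, a-factor maturation and mating targets (lower blocks, in this order). Columns are the 12 libraries by group. KO library 1 and KO library 2 are red for all 10 members, and the maturation block is pale.

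Differences were tested with limma on log2(FPKM + 1) over the whole table, with Benjamini-Hochberg adjustment over 6497 features and a threshold of 0.01 on the adjusted p. Fold changes are on that scale. The comparisons share groups, so their values are set side by side and are not independent of each other.

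**Figure D3:**
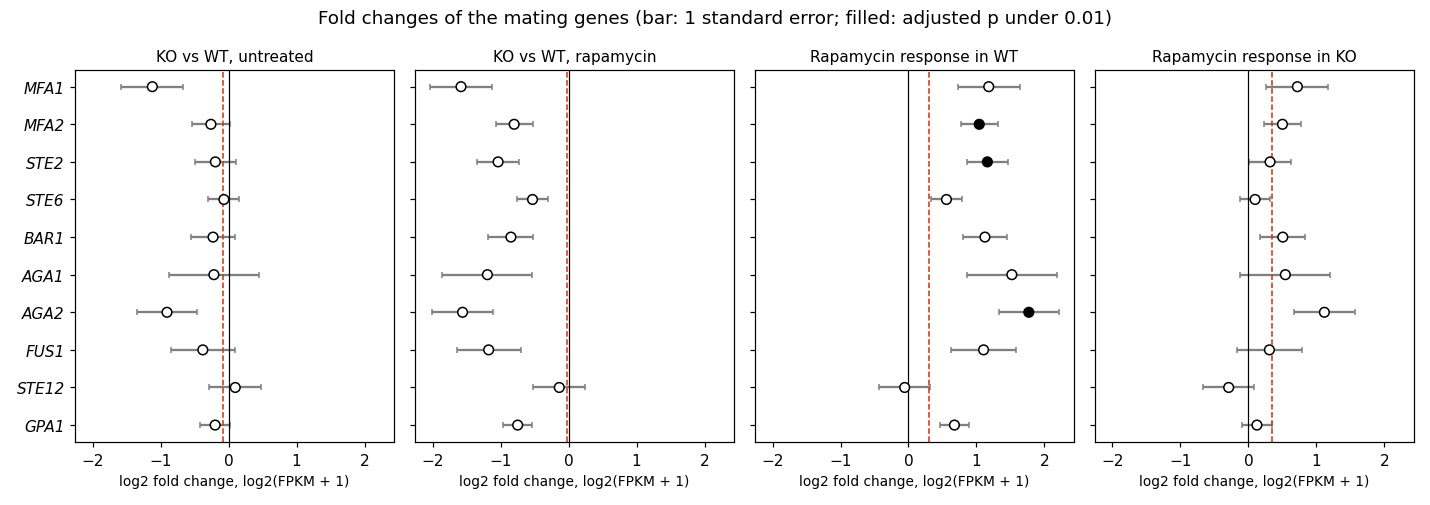
Log2 fold change in log2(FPKM + 1) (x axis) of each member (y axis) in 4 comparisons, with bars of 1 standard error. Filled points passed an adjusted p of 0.01, and the dashed line is the median of all 6497 tested features. The 3 filled points are *MFA2*, *STE2* and *AGA2* in the rapamycin response of WT.

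The first question was how rapamycin changed the mating genes in WT cells. 3 of 10 members rose and none fell, where 35.9% of all tested features rose and 16.3% fell. *AGA2* had a log2 fold change of 1.77 (SE 0.44, limma adjusted p = 0.0046), *STE2* of 1.16 (SE 0.30, adjusted p = 0.0059) and *MFA2* of 1.04 (SE 0.27, adjusted p = 0.0060), each higher in 3 of 3 treated libraries. The next was *BAR1* with 1.12 (adjusted p = 0.011), and *MFA1*, with 1.18, had an adjusted p of 0.041. *GPA1* was at 0.68 and *STE6* at 0.56, with *STE12* at -0.06 (95% interval -0.89 to 0.78). The groups were apart, treated above untreated, for 9 of 10 members and for 46.3% of all features. The median of the members was 1.11 and that of all tested features 0.29. Median-ratio scaling, which centers the bulk of features, moved the latter to 0.01 and the former to 0.83, kept the sign of all 10 members and left none past the threshold, with adjusted p of 0.011 for *AGA2*, 0.021 for *STE2* and 0.026 for *MFA2*. Under that scaling 1569 features were called higher and 1624 lower, and the share of higher among called features went from 68.8% to 49.1%. The count of members called was 0 without WT library 1, 4, 5 or 6, and it was 1 without WT library 2 or 3. It was 5 without KO library 2. Of 6497 features, 2040 to 2189 were called higher and 897 to 1039 lower without 1 of the WT libraries. Without KO library 2 the calls were 2334 higher and 1070 lower. With consecutive libraries of a strain (1 with 2, 3 with 4, 5 with 6) as a block, 9 members were called, all but *STE12*. All 9 were higher, and that fit called 2713 of 6497 features higher and 1279 lower. Deviations from the group means of consecutive libraries correlated at 0.16 to 0.29, no label pairs them, and this fit was added after seeing the data.

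In the KO, 0 of 10 members passed the threshold in the rapamycin response, where 46.7% of all features did (36.4% higher, 10.3% lower). At an unadjusted p under 0.05, which at least those 46.7% of all features passed, there was 1 member. It was *AGA2*, with a log2 fold change of 1.12 (SE 0.44, limma adjusted p = 0.048). The groups were apart, treated above untreated, for *MFA2* alone, against 50.5% of all features. The median of the members was 0.41 and that of all features 0.34. *MFA1* had 0.72 (SE 0.46), *BAR1* 0.51 and *GPA1* 0.12. With consecutive libraries as a block 2823 of 6497 features were called higher and 885 lower. Of the members 4 were called higher in that fit, namely *AGA2* (adjusted p = 3.6e-05), *AGA1* (0.0055), *BAR1* (0.0058) and *MFA1* (0.0078), at the same fold changes. In each pair of consecutive libraries the treated KO library was above the untreated one for these 4 genes. That also held for *MFA2*, *STE2* and *FUS1*, which that fit did not call, and not for *STE6*, *STE12* and *GPA1*. The share of all features was not counted, and no label pairs these libraries. Median-ratio scaling turned the sign of *STE2*, *STE6*, *FUS1* and *GPA1* (-0.04, -0.26, -0.04 and -0.23). Under that scaling the share of higher among called features went from 77.9% to 49.3%. Without KO library 2 the values of *AGA1* and *FUS1* were -0.10 and -0.23, without KO library 1 that of *AGA2* was 1.58 (adjusted p = 0.0078), and without KO libraries 1 and 2 together it was 1.05 (adjusted p = 0.0012), so that 1 member was called in either case. Leaving out both was chosen after seeing the data, and it leaves 2 libraries in each KO group. Without KO library 1 the calls among all features were 2185 higher and 544 lower, and without both 1923 and 501.

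Loss of *RRD1* was first compared in untreated cells. No member passed the threshold, where 0.585% of all features did (38 features). At an unadjusted p under 0.05, which at least 212 features passed, there was 1 member. That was *MFA1*, with a log2 fold change of -1.12 (SE 0.46, 95% interval -2.13 to -0.11, limma adjusted p = 0.20). It was also the one member whose KO group lay wholly below WT, as 18.9% of all features did. *AGA2* was at -0.91 (95% interval -1.88 to 0.07), and the other 8 members lay between -0.38 and 0.10. The median of the members was -0.22 and that of all features -0.08. Median-ratio scaling turned *STE6* to 0.04 and quantile normalization turned *MFA2* to 0.06. Without KO libraries 1 and 2 *AGA2* had -1.37 with an adjusted p of 0.0031 and *MFA1* -1.58 with 0.019.

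With rapamycin, KO against WT, again 0 of 10 members passed the threshold, where 14.1% of all features did and 5.79% were lower. At an unadjusted p under 0.05 there were 8 members, all lower in the KO. The share of all features past it was not counted, but it held at least the 1645 of 6497 whose adjusted p was under 0.05. *MFA1* had a log2 fold change of -1.58 (SE 0.46, limma adjusted p = 0.026), *AGA2* of -1.56 (SE 0.44, adjusted p = 0.025), *STE2* of -1.04 (SE 0.30, adjusted p = 0.028) and *GPA1* of -0.75 (SE 0.22, adjusted p = 0.027). These 4 were also the members whose groups were apart, KO below WT, which held for 22.7% of all features. *FUS1* (-1.17), *AGA1* (-1.19), *BAR1* (-0.85), *MFA2* (-0.80) and *STE6* (-0.53) had overlapping groups and adjusted p between 0.054 and 0.22. *STE12* was at -0.14 (95% interval -0.97 to 0.70). All 10 values were below 0, also under median-ratio scaling, with a median of -0.94 against -0.02 over all features, while quantile normalization set *MFA1* and *MFA2* to 0. That method gives the top ranks the same value in each library.

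These counts depended on KO library 2. Without it 6 members were called lower, namely *MFA1* (-2.02), *MFA2* (-1.07), *STE2* (-1.43), *BAR1* (-1.23), *AGA2* (-2.09) and *GPA1* (-1.04). That fit called 471 of 6497 features higher and 333 lower. Without KO libraries 1 and 2 there were also 6 members called lower, with *FUS1* (-1.71, limma adjusted p = 0.0014) in the place of *MFA2* (-1.07, adjusted p = 0.013). That fit was chosen after seeing the data, and it called 418 features higher and 329 lower. No other single library that was left out gave a called member here.

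The last comparison asked whether the difference between the strains changed with rapamycin. No member passed the threshold for that interaction, where 0.262% of all features did (17 features). None had an unadjusted p under 0.05, which at least 153 features had. All 10 estimates were below 0, from -0.98 for *AGA1* to -0.23 for *STE12*, with a median of -0.59 against 0.09 over all features, and quantile normalization turned *MFA1* to 0.47. The intervals were wide, as for *STE2* with -0.84 (95% interval -1.79 to 0.10, limma adjusted p = 0.36) and *MFA1* with -0.46 (-1.88 to 0.96). So a response of *STE2* that was past the threshold in WT and not in the KO was not shown to differ between them.

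Other genes of the pathway were taken from 3 lists of textbook genes, chosen by role. Among 19 genes of pheromone signalling (G protein, kinases, Ste12 partners and feedback regulators), rapamycin raised 6 and lowered 2 in WT and raised 8 and lowered none in the KO, near the shares of all features that rose (35.9% in WT and 36.4% in the KO). Of all features 16.3% fell in WT and 10.3% in the KO. Of the 2 that fell in WT, *MCM1*, which encodes the partner of α2 at the operator, had a log2 fold change of -0.75 (limma adjusted p = 0.0078). The list median was 0.42 in WT and 0.13 in the KO. No gene of this list was called between the strains in either condition with the FPKM as deposited, where 0.585% of all features were untreated and 14.1% with rapamycin. With rapamycin 1 was called under median-ratio scaling (568 features higher and 346 lower) and 3 without KO libraries 1 and 2 (418 higher and 329 lower). The call of *MCM1* was lost when any one of WT libraries 2 to 6 or KO libraries 2, 3, 4 and 6 was left out (adjusted p 0.011 to 0.032).

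Among 7 genes that modify and cut the a-factor precursor, 3 rose and 1 fell in WT, and 2 rose in the KO, against 35.9% of all features higher and 16.3% lower in WT and 36.4% higher in the KO. Under median-ratio scaling 2 genes were called in WT and 1 in the KO. The gene that fell was *RCE1*, a CAAX protease (-0.59, limma adjusted p = 0.0044), and its call was lost without WT library 2, 3, 4 or 5 (adjusted p 0.015 to 0.021). With rapamycin 1 of the 7 was lower in the KO, where 5.79% of all features were. It was the farnesyltransferase subunit gene *RAM1*, at 57.3, 60.1 and 52.9 FPKM in WT and 41.5, 40.2 and 45.6 FPKM in the KO (log2 fold change -0.41, adjusted p = 0.0055). With only the libraries of the comparison no gene of this list was called there, where 88 features were called higher and 124 lower. *RAM1* falls outside the rule for named genes and was picked after its values were seen.

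Among 16 other targets of the mating response, 8 rose and 1 fell in WT, and 5 rose and 1 fell in the KO. Of all features 35.9% rose and 16.3% fell in WT, and 36.4% rose and 10.3% fell in the KO. *PRM5*, a membrane protein gene that is also under cell-wall integrity signalling, went from 89.3, 96.0 and 99.4 to 803, 868 and 821 FPKM in WT (log2 fold change 3.12, limma adjusted p = 2e-07). In the KO it had 2.22. *AFR1*, which acts in the shape of mating projections, was at 14, 15.3 and 16.9 FPKM in untreated WT and at 117, 109 and 123 FPKM in treated WT, with log2 fold changes of 2.84 in WT and 2.12 in the KO. *ASG7*, an **a**-specific gene that dampens signalling after mating, had 2.03 in WT. *PRM10* had 1.46 in the KO. *PRM3*, needed for fusion of nuclei, fell by 1.01 in WT and fell by 1.13 in the KO on the log2 scale, and its call in WT was lost without WT library 1, 3 or 6 (adjusted p 0.011 to 0.014).

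Of these targets 3 were lower in treated KO than in treated WT, where 5.79% of all features were, and none passed the threshold in untreated cells, where 0.585% of all features did. *ASG7* was at 209, 179 and 178 FPKM in treated WT and at 99.4, 52.5 and 53.6 FPKM in treated KO (log2 fold change -1.51, SE 0.35, limma adjusted p = 0.0088). *PRM8* was at 209, 225 and 219 against 147, 94.5 and 135 FPKM (-0.82, adjusted p = 0.0018). *CIK1*, a kinesin-associated protein gene of nuclear fusion, was at 33.7, 31.1 and 34.8 against 22.8, 21.0 and 18.6 FPKM (-0.65, adjusted p = 0.0023). The groups were apart for all 3. With only the libraries of the comparison none of the 3 was called (adjusted p 0.014 to 0.024). The call of *ASG7* was also lost when any one of the WT libraries or of KO libraries 3, 4 and 6 was left out (adjusted p 0.011 to 0.043), as it was with no filter (0.012) and with no mean-variance trend (0.011). That of *CIK1* was lost without WT library 6 (0.013) or KO library 4 (0.011) and with library number as a replicate block (0.010). Without KO libraries 1 and 2 there were 8 targets called, not split by direction, where 418 of all features were higher and 329 lower. That fit was chosen after seeing the data, and it leaves 2 libraries in each KO group. *ASG7* also held an operator match upstream. The interaction called none of the 42 listed genes.

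**Figure D4:**
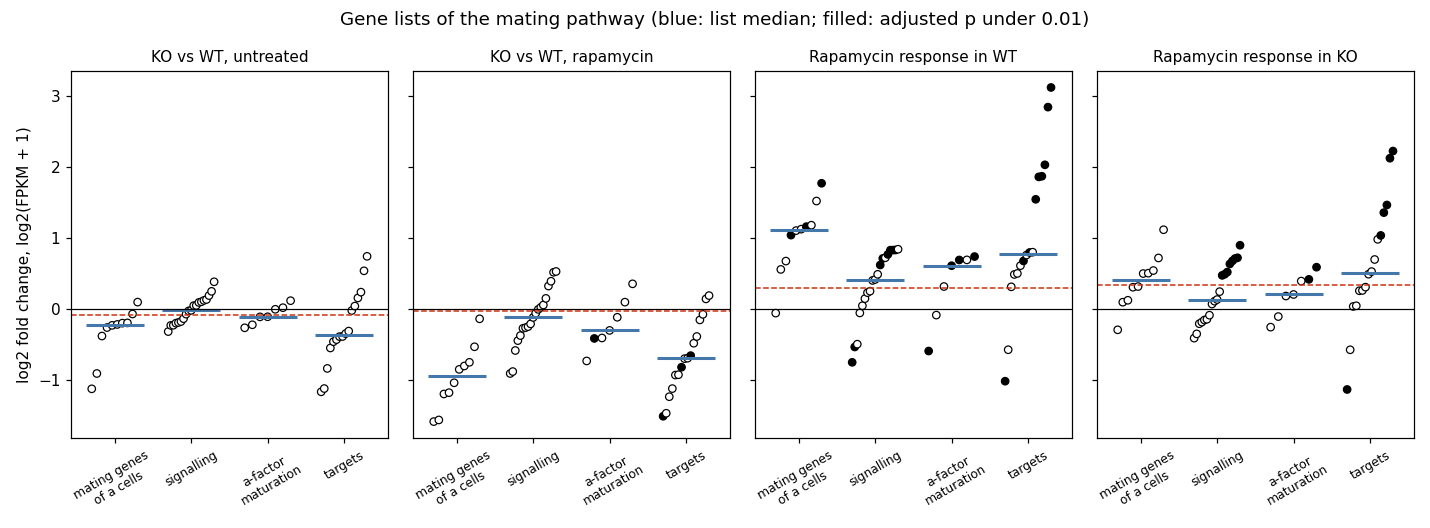
Log2 fold change in log2(FPKM + 1) (y axis) of every gene in the members and in the lists of signalling (19), a-factor maturation (7) and targets (16), in 4 comparisons. Each point is a gene, filled where the adjusted p was under 0.01, the blue line is the list median and the dashed line the median of all tested features. In the panel of KO against WT with rapamycin the median of the members is -0.94 and that of signalling -0.12.

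The α-agglutinin gene *SAG1*, a marker of the other mating type, rose with rapamycin in WT, as some members did. It was at 13.5, 26.2 and 25.1 FPKM in untreated WT and at 45.9, 80.3 and 68.3 FPKM in treated WT (log2 fold change 1.56, limma adjusted p = 0.00036), and at 46.3, 28.1 and 34.2 FPKM in treated KO. In untreated KO it was at 24, 21.7 and 22.5 FPKM, without the spread of most members there. Of the 6 α-cell genes it was the one called with rapamycin in WT, and 3 of the 6 were tested. The α1 gene was listed at 0 throughout, both at the mating-type locus and at the silent cassette. The α2 gene at the mating-type locus was also listed at 0. It shares sequence with *HMLALPHA2* (53.2 to 155 FPKM), so its 0 is uncertain.

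For each member the tested feature outside the set with the most similar levels was found by the Pearson correlation of log2(FPKM + 1) over the 12 libraries, among 6013 candidates whose mean was 10 FPKM or more. *PRM1*, a plasma membrane fusion gene, was nearest to *BAR1* (r = 0.99), *STE2* (r = 0.97) and *MFA2* (r = 0.97). *KAR5*, which acts in nuclear fusion, was nearest to *MFA1* (r = 0.97), and *FAR1*, a cell cycle inhibitor of the pheromone response, to *FUS1* (r = 0.97). *GRR1*, an F-box protein gene, was nearest to *AGA1* (r = 0.97) and *STE6* (r = 0.95). *AGA2* was nearest to YOR343C (r = 0.98), *GPA1* to YJL016W (r = 0.96) and *STE12* to *ART5* (r = 0.92). Within the set *MFA1* and *AGA2* were nearest to each other (r = 0.97), as were *STE2* and *BAR1* (r = 0.98), and *STE12* was the least like the rest, with at most 0.63 to any member. These values have no p, and the points share the 4 groups.

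The level of the a-factor genes depended strongly on how length entered. *MFA1* made up 7.83% of the sum of all FPKM in untreated WT library 1 and 27.5% in treated WT library 4, its highest share, with 3.01% in untreated KO library 3 as its lowest. Weighting each FPKM by coding length gave 1.87%, 6.11% and 0.650% in the same libraries. Weighting by effective length instead gave 0.116%, 0.361% and 0.0386%. The effective length is the number of places at which a fragment can start, here for fragments of mean length 200 nt and SD 80 nt, an assumed model since the value used for these files is not given in the sources used here. It came to 4.65 nt for *MFA1*, 5.48 nt for *MFA2* and 73.0 nt for *AGA2*, all far under the coding lengths of 111, 117 and 264 nt, and to at least 1096 nt for the 7 other members. The FPKM of these 3 genes therefore cannot be ranked against that of the longer members. Fold changes between libraries of 1 gene do not depend on its length only where the libraries share the same fragment lengths. Those are not known for each library. At effective lengths this small, a difference in fragment length would enter the fold changes of these 3 genes. On this model *MFA1* rested on 3041 to 33615 reads a library, *AGA2* on 263 to 3425 and *FUS1* on 278 to 2052.

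**Figure D5:**
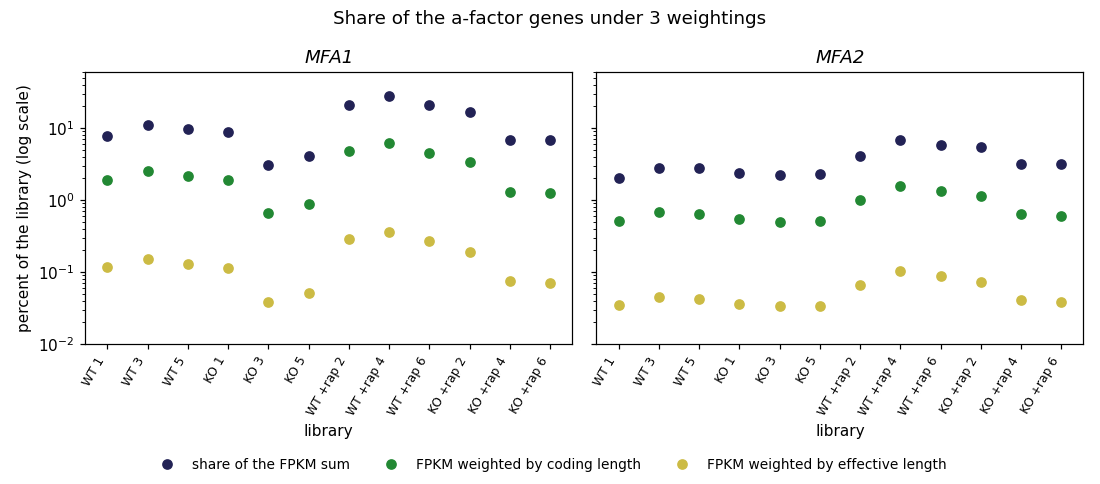
Share of each library (y axis, percent, log scale) taken by *MFA1* (left) and *MFA2* (right) in the 12 libraries (x axis), as a share of the FPKM sum, with FPKM weighted by coding length and with FPKM weighted by effective length. Each point is 1 library. The 3 series differ in level, with *MFA1* at 27.5%, 6.11% and 0.361% in treated WT library 4.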

How the data were processed

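Libraries were TruSeq preparations read as 100-nt single reads on a HiSeq 2500, and the authors aligned them with TopHat and deposited FPKM from Cufflinks. Versions, genome build and annotation are not given in the sources used here. The deposited FPKM of 7126 features in 12 libraries were used unchanged, with groups from the sample labels. limma (3.58.1, R 4.3.3) was fitted to log2(FPKM + 1) with 1 mean for each of the 4 groups (8 residual degrees of freedom) and with a mean-variance trend, over features whose mean was 1 FPKM or more. Calls needed a Benjamini-Hochberg adjusted p under 0.01, two-sided, the threshold of the study, whose own tool needs reads. FPKM hold no counts, so a count test was not run. The members and lists were chosen with earlier results of these data known. Named genes were the members, the 3 called list genes with the largest rise and fall in each comparison, the α-cell genes and the nearest feature of each member. The procedure was tested on simulated data. Sequences came from the R64 genome and its annotation, read by gene coordinates. Alternatives were other pseudocounts, filters, scalings, thresholds, blocks and left-out libraries. Multimapped reads and strand handling are not given in the sources used here.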

Additional observations from a re-analysis of the deposited data

How the results depend on the processing

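The design has 3 libraries in each group, unknown days and no counts, so members with spreads like those of the KO groups were resolved only at large fold changes, and a p that missed the threshold does not show equal levels. Between the strains in untreated cells the count of features called was 38 and became 212 at an adjusted p under 0.05, 20 with a pseudocount of 5, 25 with no filter, 15 with quantile normalization, 1 with only the libraries of the comparison and 61 without KO libraries 1 and 2, where the 1 member called was *AGA2* and *STE12*, not called, turned to -0.11. With rapamycin 914 features became 1645 at 0.05 and 212 with only the libraries of the comparison (share of higher calls 41.5% from 58.9%), and the members called were 4 at 0.05 and 6 without KO libraries 1 and 2. That last fit called 418 features higher and 329 lower. The interaction's 17 features became 153 at 0.05, 11 with a pseudocount of 0.1, 7 with no filter, 103 with quantile normalization, 7 without the mean-variance trend, 83 with consecutive libraries as a block and 4 without KO libraries 1 and 2. Members called in the WT response were 7 at 0.05, 0 with median-ratio scaling, 5 with only the libraries of the comparison, 9 with consecutive libraries as a block and 7 without KO libraries 1 and 2. In the KO response they were 1 at 0.05, 1 with quantile normalization, 4 with consecutive libraries as a block and 1 without KO libraries 1 and 2, which was *AGA2*, while *GPA1*, not called, turned to -0.0044.

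Signs turned under median-ratio scaling for *STE6* untreated (0.039) and for *STE2* (-0.0396), *STE6* (-0.26), *FUS1* (-0.0398) and *GPA1* (-0.23) in the KO response. Under quantile normalization they turned for *MFA2* untreated (0.055), *STE6* (-0.20), *FUS1* (-0.089) and *GPA1* (-0.18) in the KO response and *MFA1* in the interaction (0.47), while *MFA1* and *MFA2* with rapamycin and *MFA1* in the WT response became 0. Quantile normalization set the share of higher calls to 51.6% in WT and 48.6% in the KO, and to 61.2% from 29.4% in the interaction. The cause of these changes was not tested.

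Leaving out 1 library at a time gave 1 to 46 features between untreated strains, 408 to 906 with rapamycin, 2974 to 3404 in the WT response, 2440 to 3119 in the KO response and 1 to 19 in the interaction, and 0 to 6, 0 to 5 and 0 to 1 members with rapamycin, in the WT response and in the KO response. Ranges that crossed 0 were *STE12* (-0.11 to 0.29), *STE6* (-0.26 to 0.030) and *AGA1* (-0.72 to 0.18) untreated, *STE12* with rapamycin (-0.57 to 0.14), in the WT response (-0.33 to 0.21) and in the interaction (-0.67 to 0.038), and *FUS1* (-0.23 to 0.79), *STE2* (-0.079 to 0.56), *STE6* (-0.10 to 0.28), *AGA1* (-0.10 to 1.06) and *GPA1* (-0.17 to 0.29) in the KO response.

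With library number as a replicate block across strains, 3 features were called untreated and 7 in the interaction, and no member in either condition. With rapamycin the calls of *CIK1* (adjusted p = 0.010) and *RAM1* were lost. No label pairs same-numbered libraries across the strains, and their deviations correlated at -0.17 to 0.13. So few values cannot show whether such libraries share a day. Consecutive numbers within a strain (1 with 2 and so on) correlated at 0.16 to 0.29, a hint from the data and not the design, and that block was chosen after seeing the data.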
